A study of Mus musculus with 6 samples.

Results

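The core autophagy machinery was examined as 38 genes, each found by its symbol among the 27179 genes of the deposited table. The members cover 8 roles, from initiation through nucleation, phosphoinositide binding, lipid transfer, conjugation, processing by ATG4 and the ATG8 proteins to fusion, and cargo receptors are not among them. RNA came from B16F10, an established mouse melanoma line labelled as wild type and kept in medium with serum. Of the 6 libraries, 3 were from cells given 0.01% ozonated olive oil (OZO) and 3 from cells given 0.01% olive oil (OLO), each for 6 h. OLO is the precursor of OZO, so all cells had received oil, and cells without oil were not analysed here. The labels do not say whether the 3 libraries of a group were separate cultures, and the study describes its transcriptomic data of this line as independent experiments.

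The values given here are the authors' average expression over all 6 libraries, as log2 CPM, the reads of a gene scaled to the same library size. They are printed as CPM, so each is a geometric mean over the libraries. OZO and OLO libraries enter this average alike, so it gives the level of a gene in the line under oil and not its response to OZO. Levels in OZO or OLO cells alone, and the order of genes close in level, may differ from it and were not analysed. The difference between OZO and OLO was not analysed here, because the columns for it hold the authors' own comparison. Values of single libraries were not used here either, so no spread between libraries stands behind a level. Each level carries an exact Poisson interval (95%) for its reads, which covers counting error only. CPM is given first for each gene, as the depth behind it, and grows with the length of a gene. Levels of different genes are therefore compared per kilobase, with all exons merged unless another length is named, and ratios in reads are printed as such. No test was run.

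Scaled libraries held 19641945 reads on average (geometric mean), and a gene with 1 CPM thus rested on 19.6 reads per library. For 6025 genes of the table no library had a read. The labelled melanoma line was checked by markers, and all 7 melanocyte markers were found, between 109 CPM (Sox10) and 7052 CPM (Dct). None of the 4 keratinocyte and 5 leukocyte markers reached 1 CPM, and Krt5 had no reads. Its value of 0.0255 CPM came only from the 0.5 reads added to each count. Low levels were found for 3 of 4 fibroblast markers, up to 3.28 CPM for Pdgfra, and for 1 of 4 endothelial markers, Pecam1 with 1.21 CPM. The part of such cells or transcripts in the levels below was not tested.

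Autophagy encloses cytoplasm in a double membrane, the autophagosome, which fuses with the lysosome so that its content is digested. The ULK kinase complex starts the process, and a lipid kinase complex around Beclin 1 then makes phosphatidylinositol 3-phosphate (PI3P) on the forming membrane. Proteins that bind PI3P recruit lipid transfer proteins and 2 conjugation systems, of which one joins ATG12 to ATG5 and the other joins the small ATG8 proteins to a membrane lipid. In pigment cells some of these proteins are also known to act on the melanosome, the organelle that makes melanin.

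All 38 genes had reads and all 38 averaged at least 1 CPM, a level that 43.7% of the genes in the table reached. At least 10 CPM was reached by 37 of the 38, against 32.3% of all genes, and the exception was Atg10. In reads, not divided by length, Becn1 was highest with 148 CPM and Atg10 lowest with 7.93 CPM, an 18.7-fold range. Becn1 was among 11 genes at 100 CPM or above, and 22 genes were between 20 and 100 CPM. Counting error was small beside this range, with an interval of ±6.46% for Atg10 and ±1.49% for Becn1. Together the 38 genes summed to 2292 CPM, or about 0.229% of the reads. This is a sum of geometric means and not a share of counted reads.

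**Figure D1:**
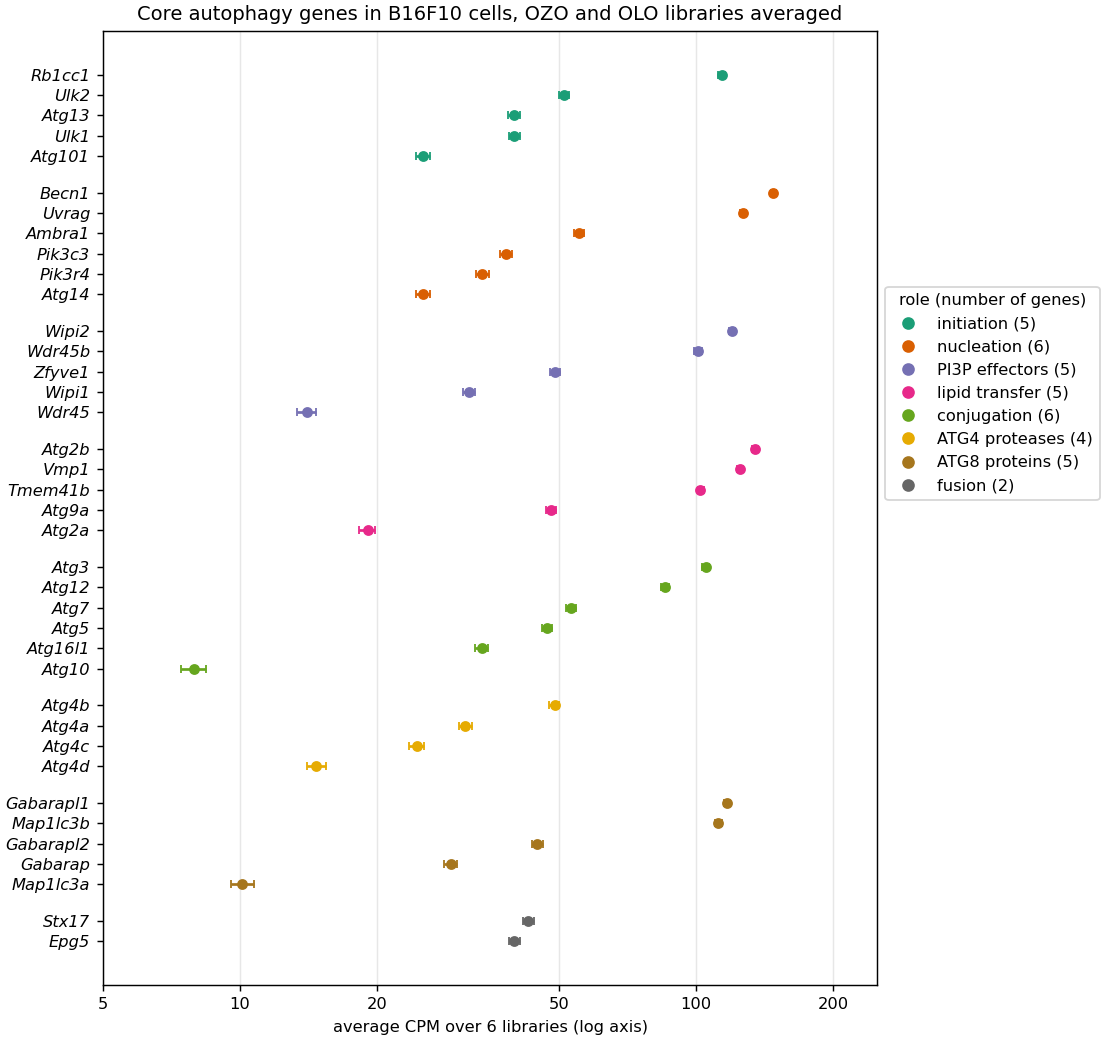
Each point is the average CPM of 1 gene over the 6 libraries (log axis), grouped and coloured by role, and bars are exact Poisson intervals for the reads. Becn1 is highest with 148 CPM, Atg10 is lowest with 7.93 CPM, and most genes lie between 20 and 100 CPM.

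Per kilobase of merged exons the median of the 38 genes was 8.58 CPM, 5.86 times the median of 1.47 CPM over the 19227 genes with reads and a known length. Among the 11477 such genes with at least 1 CPM the median was 7.26 CPM per kilobase, and 25 of the 38 genes lay above it. The members' median was at the 55.1 percentile of these genes, near their middle. Gabarapl1 had the highest level, 58.0 CPM per kilobase, at the 96.6 percentile of the genes with reads. Atg3 with 33.2 and Vmp1 with 32.3 CPM per kilobase followed, and these 3 were the only members past the 90 percentile. At the other end were Atg4d with 2.02, Atg2a with 2.48 and Pik3r4 and Atg16l1 with 3.52 CPM per kilobase each.

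**Figure D2:**
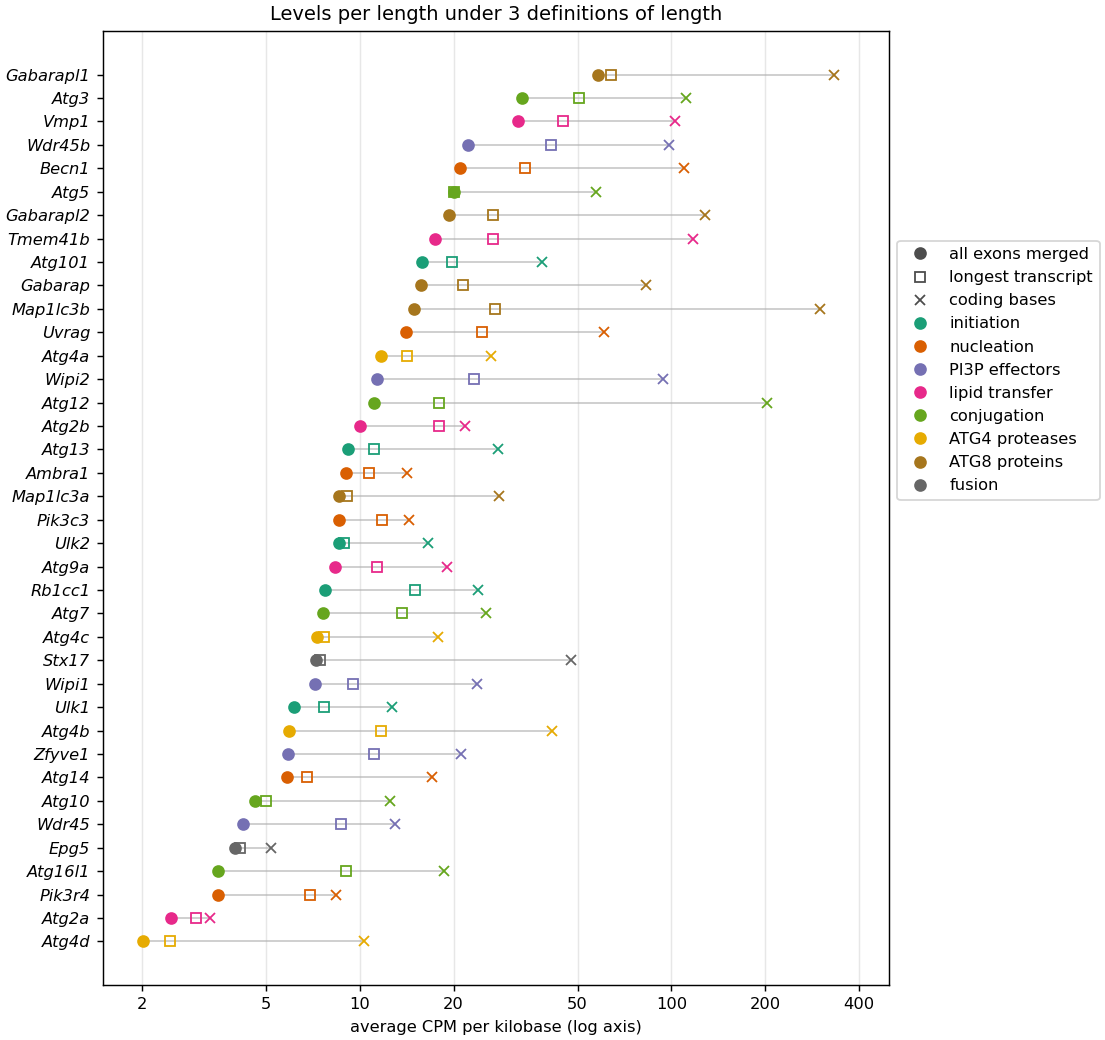
Average CPM per kilobase of the 38 genes (log axis), with the length taken as all exons merged (filled circles), the longest transcript (open squares) or the coding bases (crosses), coloured by role. Gabarapl1 is at the top under each of the 3 lengths, Atg4d and Atg2a are among the lowest 5 under each, and Map1lc3b and Atg12, whose exons are mostly untranslated, move most between exons (14.9 and 11.1) and coding bases (299 and 202).

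The initiation complex consists of the kinases ULK1 and ULK2, the adaptors ATG13 and ATG101 and the scaffold FIP200, which Rb1cc1 encodes. Rb1cc1 had the most reads of the 5 genes, 114 CPM (interval 112 to 116). Ulk2 was at 51.3 CPM, Ulk1 at 40.0, Atg13 at 40.0 and Atg101 at 25.2. Division by length changed this order. Atg101, with 1597 bases of exon, was highest per kilobase at 15.8 CPM, while Rb1cc1, with 14690 bases, came to 7.75 (15.0 with its longest transcript). The 5 genes then lay within 2.56-fold of each other, from 6.17 CPM per kilobase for Ulk1, the narrowest range per kilobase of the roles with more than 2 genes.

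The kinases ULK1 and ULK2 can stand in for each other in many cells. Ulk2 made up 58.2% of their summed level per kilobase and Ulk1 41.8%. The share of Ulk2 stayed between 53.8% and 58.2% under the 5 ways of taking length, so that Ulk2 was ahead in each, by 1.16 to 1.39 times. Their coding sequences were 58.9% identical, with no shared run longer than 17 bases.

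Nucleation genes were led by Becn1, which encodes Beclin 1, the scaffold of the PI3 kinase complexes. It was at 148 CPM (interval 146 to 150) and 20.9 CPM per kilobase. Becn1 lies on chromosome 11 of GRCm38 from 101285952 to 101302286, and 43.9% of its exonic bases are overlapped by Cntd1 on the other strand. Uvrag, a Beclin 1 partner that marks the endosomal form of the complex, followed with 127 CPM and 14.1 CPM per kilobase. Atg14, the partner that marks the autophagy form, was at 25.2 CPM and 5.84 CPM per kilobase. The catalytic subunit Pik3c3 (VPS34) was at 38.3 CPM and the regulatory subunit Pik3r4 (VPS15) at 34.0 CPM, and per kilobase Becn1 was 2.44 times Pik3c3 and 5.94 times Pik3r4. These ratios moved with length, to 7.64 and 13.2 by coding bases, and Becn1 was the higher gene under each length used. Ambra1, a Beclin 1 regulator, was at 55.4 CPM. Part of the exons of Uvrag, 17.6%, are overlapped by Gm45187 on the other strand.

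Of the PI3P effectors, the WIPI propellers bind the lipid through a ring of repeats. Wipi2, which recruits the ATG16L1 complex, had the most reads at 120 CPM. Wdr45b (WIPI3) was at 101 CPM, Wipi1 at 31.8 and Wdr45 (WIPI4) at 14.0. Per kilobase, Wdr45b led with 22.2 CPM, 1.95 times Wipi2 and 5.24 times Wdr45. The lead of Wdr45b over Wipi2 was 1.04-fold by coding bases and was lost without division by length, where the ratio was 0.843. Wdr45 remained the lowest of the 4 in reads and per coding base, with 5.25% and 5.67% of the family, but by the exons of basic transcripts Wipi1 was lower, with 9.01% against 10.2%. Wdr45 lies on the X chromosome from 7714333 to 7728206, and Gm45208 on the same strand covers 24.7% of its exonic bases. Zfyve1 (DFCP1), a protein of the membrane from which autophagosomes emerge, was at 49.2 CPM and 5.89 CPM per kilobase.

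Lipid reaches the growing membrane through the ATG2 bridges and is spread between its leaflets by scramblases. Atg2b stood far above its paralog Atg2a, with 135 CPM (interval 133 to 137) against 19.1 CPM (18.2 to 19.8). Per kilobase the ratio was 4.05, and under the other lengths it was 5.98 to 7.08. Atg2b thus held 80.2% of the ATG2 total per kilobase and at least that share under every length used. The 2 coding sequences were 54.3% identical and shared no run longer than 16 bases. Atg2b lies on chromosome 12 from 105616136 to 105685211, and Atg2a on chromosome 19 from 6241668 to 6262335.

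Among the scramblases, Vmp1, an endoplasmic reticulum protein, was at 125 CPM and 32.3 CPM per kilobase. It lies on chromosome 11 from 86583865 to 86683836, and the microRNA gene Mir21a covers 2.38% of its exonic bases on the same strand. Tmem41b, a related protein of the same membrane, was at 102 CPM and 17.4 CPM per kilobase. Atg9a, the scramblase carried on vesicles, was lower at 48.1 CPM and 8.34 CPM per kilobase. The gene Gm29253 on the same strand holds 27.8% of the stretches of 100 bases in the transcripts of Atg9a, so the level of Atg9a is uncertain.

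The conjugation enzymes spread over 9.44-fold per kilobase. Atg7, the activating enzyme of both conjugation systems, was at 53.3 CPM and 7.65 CPM per kilobase. The conjugating enzymes downstream of it were far apart. Atg3, which transfers ATG8 proteins, was at 105 CPM (interval 103 to 107) and 33.2 CPM per kilobase. Atg10, which transfers ATG12, was at 7.93 CPM (7.41 to 8.43) and 4.62 CPM per kilobase, and it rested on 155 reads per library against 2058 for Atg3. Atg3 was 7.20 times Atg10 per kilobase and 8.88 to 13.2 times under the other lengths.

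The parts of the ATG12, ATG5 and ATG16L1 complex were also unequal. Atg12 was at 85.5 CPM, Atg5 at 47.2 and Atg16l1 at 33.9. Per kilobase Atg12 came to 11.1 CPM and Atg16l1 to 3.52, and Atg5 was the highest of the 3, at 5.70 times Atg16l1. Under the other lengths and in reads Atg5 was 1.39 to 3.07 times Atg16l1, and it was below Atg12 by coding bases (0.283 times) and in reads (0.551 times). Atg12 has a coding sequence of only 423 bases in 7711 bases of exon, so per coding base it was the highest of the 6 genes with 202 CPM per kilobase. Atg16l1 moved by 13 places in the order of the 38 genes when the exons of basic transcripts were used, where it came to 10.7 CPM per kilobase.

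The letters CACGTG, an E-box that factors of the MITF and TFE family can bind and that reads the same on both strands, were looked for in the 250 bases before the annotated starts. RefSeq windows on GRCm38.p6 were matched for 30 of the 38 genes, 35 windows in all. The letters were in 3 of the 35 windows (8.57%), against 6.02% of 32851 windows of all genes, a similar share. The 3 windows belonged to Atg3, Atg5 and Atg7, all of them genes of the conjugation group, and are shown because no other member window held the letters, in capitals below. A match is a description of the sequence, and binding was not measured. The matches of Atg3 lie on chr16:45158723-45158752 and chr16:45158746-45158775, with 88 and 65 bases between the letters and the start, that of Atg5 on chr10:44268313-44268338, with 8 bases between, and that of Atg7 on chr6:114670952-114670981, with 126 bases between, all on the plus strand. The start used for Atg7 lies 27999 bases inside the gene as GENCODE gives it, whose first start was not searched, whereas those of Atg3 and Atg5 lie within 44 bases of the gene's own start.
Atg3, first match: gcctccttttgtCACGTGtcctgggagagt
Atg3, second match: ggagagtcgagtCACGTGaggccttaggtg
Atg5: cggagcgcttgcCACGTGgtcttggt
Atg7: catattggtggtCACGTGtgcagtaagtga

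The ATG4 proteases cut ATG8 proteins before conjugation and release them from the membrane afterwards. Their reads were led by Atg4b, the family member with the broadest activity, at 49.0 CPM. Atg4a was at 31.2 CPM, Atg4c at 24.4 and Atg4d at 14.7. The leading gene depended on length. Atg4a led with 43.5% of the family per kilobase and Atg4b held 21.9%, whereas per coding base Atg4b led with 43.3% and Atg4a held 27.4%. Atg4d was the lowest of the 4 under every length used, with 6.83% to 12.3% of the family. The transcripts of Atg4a share 34.7% of their 100-base stretches with Atg4a-ps or Syt6, and Kri1 on the other strand covers 19.3% of the exonic bases of Atg4d, so these levels are less certain than that of Atg4b, which shares none.

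ATG8 proteins had the highest median of the 8 roles, 15.7 CPM per kilobase, 2.93 times that of the fusion genes. This ratio was 4.82 with the longest transcript, 3.92 with basic exons, 8.15 by coding bases and 1.08 in reads. Without division by length the lipid transfer genes had the highest median, 102 CPM, and the ATG8 genes 44.9 CPM. They are small ubiquitin-like proteins that decorate the autophagosome and bind cargo receptors, in an LC3 and a GABARAP branch. Gabarapl1 was at 117 CPM (interval 115 to 119) and Map1lc3b (LC3B) at 112 CPM (110 to 114). Gabarapl2 was at 44.9 CPM, Gabarap at 29.0 and Map1lc3a at 10.1 CPM (9.55 to 10.7). The family summed to 313 CPM, and Map1lc3a was the lowest member under every length used.

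Gabarapl1 held 49.8% of the ATG8 total per kilobase and led it under all 5 ways of taking length, down to 37.3% without division by length. How far Map1lc3b lay below Gabarapl1 depended on length, because Map1lc3b has 7517 bases of exon for 375 coding bases. Per kilobase of exon Gabarapl1 was 3.89 times Map1lc3b, per coding base 1.11 times and in reads 1.04 times. The GABARAP branch, which is Gabarap, Gabarapl1 and Gabarapl2 together, made up 79.8% per kilobase of exon and 60.9% of the reads. Gabarapl1 lies on chromosome 6 from 129533160 to 129542346, and 28.3% of its exonic bases are overlapped by 1700101I11Rik on the other strand. Other annotated genes share 6.80% of the 100-base stretches of Gabarapl2 (Gm3724, Gm6051 and Gm5829) and 2.88% of those of Map1lc3b.

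**Figure D3:**
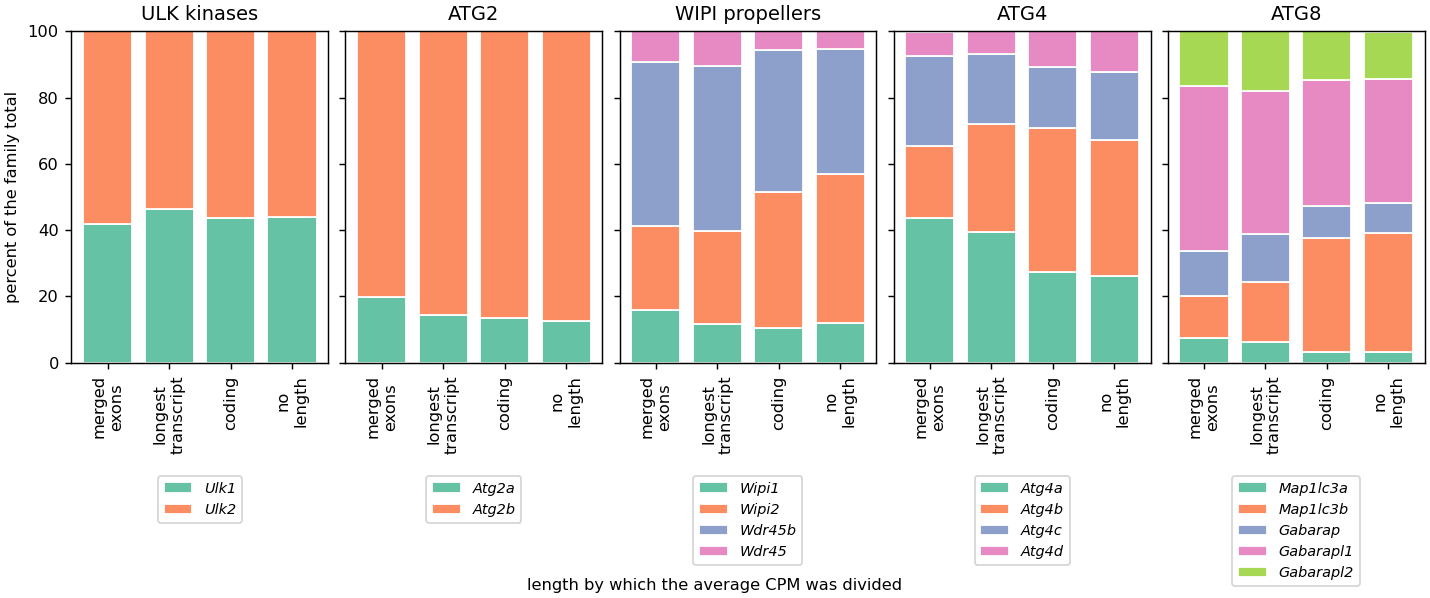
Share of each paralog in the summed average CPM of its family (percent), with CPM divided by the length of merged exons, the longest transcript or the coding bases, or not divided. Atg2b holds 80.2% to 87.6% of its family and Gabarapl1 leads the ATG8 family in each bar, whereas the lead among the ATG4 genes passes from Atg4a to Atg4b.

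The ATG8 paralogs differ throughout their sequence. No ATG8 gene shared a 100-base stretch with another, and the coding sequences were 50.3% to 74.6% identical, least between the branches. The longest run that any pair shared was 17 bases, between Gabarap and Gabarapl1, at bases 322 to 338 of both coding sequences. It is printed in capitals, with 6 bases on each side, from the GENCODE M21 transcripts, to show how short the longest stretch in common is.
Gabarap: tacattGCCTACAGTGATGAAAGcgtcta
Gabarapl1: tatgtgGCCTACAGTGATGAAAGtgtcta

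Fusion is represented by the SNARE protein gene Stx17 and by the tether gene Epg5. Stx17 was at 42.9 CPM and Epg5 at 40.0 CPM, and per kilobase they came to 7.23 and 3.99 CPM, the latter with 10039 bases of exon. Their median of 5.37 CPM per kilobase of exon was the lowest of the 8 roles, whereas in reads that of the ATG4 genes was lowest (27.6 against 41.4 CPM). Stx17 works with partners outside the members. The list includes the SNARE genes Snap29 (22.6 CPM per kilobase), Vamp8 (33.9) and Ykt6 (58.2), and whether each gene acts with Stx17 was not tested. All 11 genes were at 1 CPM or above. Their median was 14.2 CPM per kilobase, 1.66 times that of the 38 genes. They ranged from 4.50 for Vps18, a subunit of the HOPS tether, to 125 for Rab7, the late endosome GTPase.

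Genes around the core machinery are given for scale, without a test. The 12 cargo receptor genes had a median of 25.2 CPM per kilobase, 2.94 times that of the members (1.63 times in reads). They ranged from 5.91 for Ncoa4, the ferritin receptor, to 424 for Sqstm1, which encodes p62. Sqstm1 alone was at 1422 CPM, equal to 62.1% of the summed CPM of the 38 genes, in an average that mixes OZO and OLO libraries and so any response of Sqstm1 to OZO. All 15 listed genes of the lysosomal V-ATPase, the proton pump of the compartment with which autophagosomes fuse, lay above the members' median. The list was not meant to hold every gene of the pump. Their own median was 53.7 CPM per kilobase, 6.25 times that of the members (4.08 times in reads and 8.81 times with basic exons), from 12.6 for Atp6v0e to 104 for Atp6v0d1.

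The 13 upstream kinase and transcription factor genes had a median of 7.91 CPM per kilobase, 0.922 times that of the members (1.54 times in reads). Mitf, the melanocyte master factor, was the highest of them at 46.5 CPM per kilobase. Of its relatives that are known as regulators of lysosome and autophagy genes, Tfe3 was at 5.73 and Tfeb, the lowest of the list, at 0.934 CPM per kilobase. Of 8 other autophagy genes, 7 were at 1 CPM or above, with a median of 9.58 CPM per kilobase and Sh3glb1 highest at 18.5. Rubcnl, the relative of the inhibitor gene Rubcn, was lowest with 0.540 reads per library. Its 0.0530 CPM includes the 0.5 reads added to each count, which alone give 0.0255 CPM, so it lay near the limit of detection. Atg16l2, the paralog of Atg16l1, was at 0.697 CPM per kilobase of merged exons against 3.52 for Atg16l1, whose level moved with length. In reads the 2 genes were at 5.90 and 33.9 CPM.

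**Figure D4:**
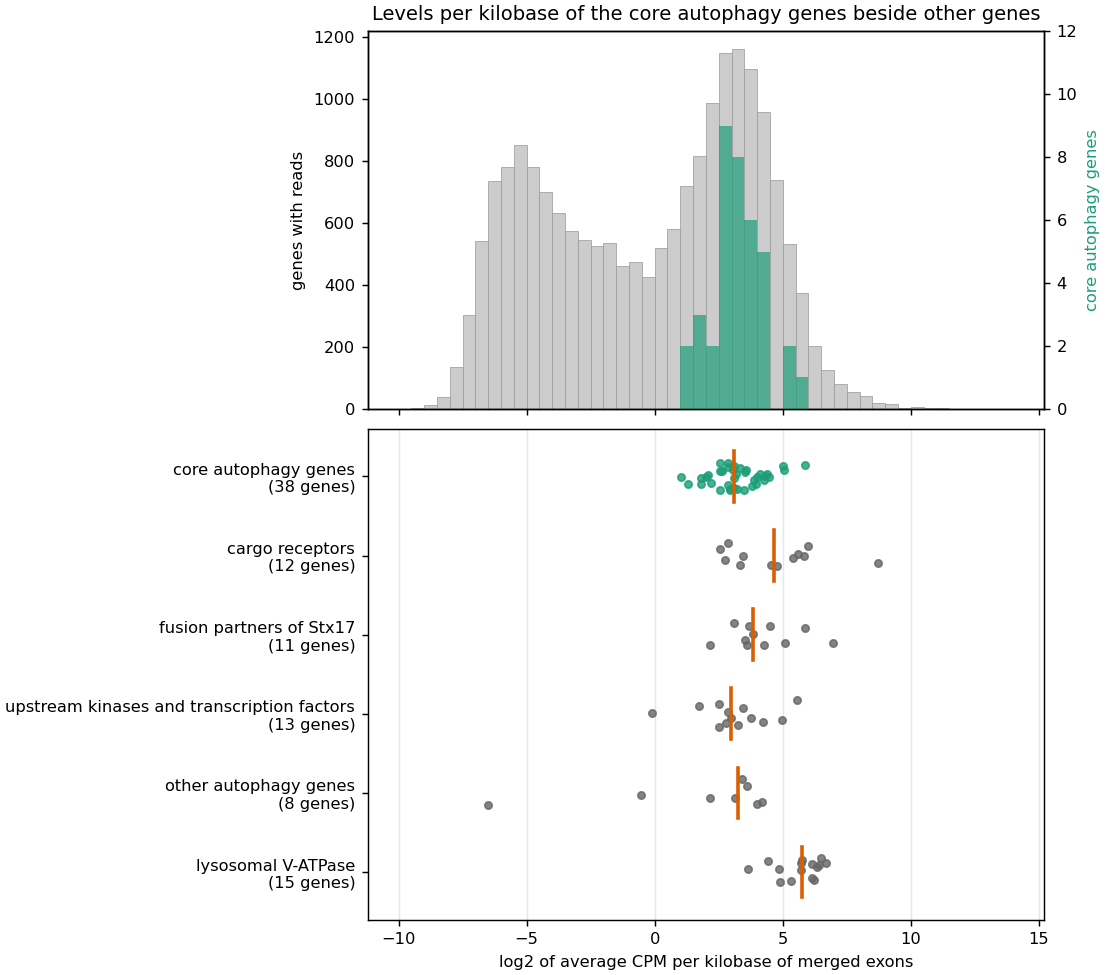
Top, histogram of log2 average CPM per kilobase for the genes with reads (grey, left axis) and the 38 core autophagy genes (green, right axis). Bottom, the same measure for each gene of the core machinery and of 5 lists around it, with list medians as orange bars, where the median is 8.58 CPM per kilobase for the core, 25.2 for cargo receptors and 53.7 for the V-ATPase.

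Sequence shared with other genes limits some of these levels. For 24 of the 38 genes no stretch of 100 transcript bases occurs in a transcript of another annotated gene, on either strand. For 7 genes up to 10% of the stretches are shared, and for 7 genes more than 10%. The last 7 are Atg4a, Becn1, Atg9a, Gabarapl1, Uvrag, Wdr45 and Atg4d. Atg9a and Wdr45 are overlapped on the same strand, and Atg4a shares sequence with genes elsewhere, so counting by strand would not separate these 3. Uvrag is overlapped on the other strand by Gm45187 and shares stretches with 35 other genes, Gm45187 included, so strand alone may not resolve it. Becn1, Gabarapl1 and Atg4d are overlapped on the other strand, and whether strand, which the library kit keeps, was used in counting is not given in the sources used here.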

How the data were processed

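RNA-seq libraries of B16F10 cells (3 OZO, 3 OLO) were made with a directional kit. Per the methods and the submitters' processing notes, the authors aligned reads to mm10 with HISAT2 (2.1.0), counted them per gene with featureCounts (2.1.1) and compared the groups with limma-voom (3.58.1). The deposited table has 1 row per Entrez gene. Its average log2 CPM over the 6 libraries, made by the authors with 0.5 reads added to each count as voom does, is the column analysed here. Its other value columns hold the authors' own comparison (log2 fold change, moderated statistic, p-values and log odds) and were not used. The plan named tests for values of single libraries, and since only this average was used, no test was run. Library scaling, counting annotation and strand setting are not given in the sources used here.

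The geometric mean of library sizes was computed from the genes without reads. Lengths, positions and overlaps came from GENCODE M21 (GRCm38, the build of mm10), in which all 38 genes were found by Ensembl identifier. Length was all exons merged, and alternatives were the longest transcript, the coding bases of the principal transcript, no division and, added after the data were seen, exons of basic transcripts. Medians were taken on the log2 scale. Identity was the share of identical columns in a global alignment. All 38 members were named, with the highest and the lowest gene of each list around them. Other genes of those lists, such as Snap29, Vamp8, Ykt6, Tfe3 and Atg16l2, and the single markers named were chosen after their values were seen. The members and lists were chosen with earlier results of these data known. Library size, reads and counting intervals were tested on simulated Poisson counts with the same levels in all 6 libraries. Spread between libraries beyond counting, lengths and family shares were not part of that test. Python 3.11.15, numpy 2.4.6, pandas 2.3.3, scipy 1.17.1, Biopython 1.88 and matplotlib 3.10.9 were used.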

Additional observations from a re-analysis of the deposited data

How the results depend on the processing

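No paired analysis was possible because 1 average over all 6 libraries was used. For the same reason the tests, normalizations, filters and left-out libraries planned for values of single libraries were not run. The number of members at 1 CPM or more, 38, was 38 at 0.5 CPM and 37 at 10 CPM. The other values moved with the length used. The members' median over that of all genes with reads, 5.86, was 6.28 with the longest transcript, 4.15 with coding bases, 16.9 without length and 6.02 with basic exons, and it was 1.18 over the genes with at least 1 CPM. With the longest transcript, coding bases, no length and basic exons, in this order, the share of Ulk2 was 53.8%, 56.5%, 56.2% and 53.9%, that of Atg2b 85.7%, 86.7%, 87.6% and 85.7%, and that of Wdr45b 49.9%, 42.8%, 37.9% and 52.7%. In the same order the share of Atg4a was 39.4%, 27.4%, 26.2% and 39.3%, that of Gabarapl1 43.2%, 38.2%, 37.3% and 44.8%, and the median of the ATG8 genes over that of the fusion genes 4.82, 8.15, 1.08 and 3.92. Of the 10 highest members per kilobase, 7 were among the 10 highest with the longest transcript, 7 with coding bases, 5 without length and 7 with basic exons. Depth limited these levels little, and the spread between libraries is unknown.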
